A study of Callithrix jacchus with 54 samples.

Results

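Common marmoset embryonic stem cells (cjESCs) were led toward primordial germ cell-like cells, and bulk RNA was sequenced along the way from 54 libraries, 27 conditions with 2 replicates each. Reported here is the comparison of cells given BLSE plus the WNT pathway inhibitor IWR1 with cells given BLSE alone, at 12 h and at 24 h, in 8 of the 54 libraries. The members were chosen by their column names: the BLSE+IWR1 libraries at 12 h and 24 h were set against the BLSE libraries of the transgenic line at the same hour, 2 libraries on each side. BLSE stands for BMP4, LIF, SCF and EGF, and both arms also received a ROCK inhibitor.

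More than the inhibitor separates the arms. The BLSE cells carried transgenes for BLIMP1, SOX17 and TFAP2C, whose inducers were not part of this condition. Whether transgene RNA was present without the inducers was not tested. The BLSE cells came directly from cjESCs kept in DK20FA, a medium of KnockOut DMEM with serum replacement, bFGF and activin A. The BLSE+IWR1 cells were wild type, came from cjESCs kept in PESFA, a primate ES cell medium with bFGF and activin A, and had been pre-treated for 24 h with activin A and the GSK3 inhibitor IM12. Genotype, medium, pre-treatment and IWR1 therefore change together between the arms and cannot be told apart by comparing them. All cells belonged to the same reporter line, marked by BLIMP1-tdTomato and NANOS3-eGFP, and at 12 h and 24 h all cells were collected without selection by a marker. The starting cells of each arm, transgenic cjESCs in DK20FA and wild-type cjESCs in PESFA, and the pre-treated cells were used as references, with 2 libraries each. These 3 references were sorted as TRA-1-60-positive cells, the cjESCs from cultures on mouse feeder cells and the pre-treated cells after their day on fibronectin.

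WNT ligands stabilise beta-catenin, which enters the nucleus and activates genes such as LEF1 and SP5 together with TCF/LEF factors. IWR1 acts against this by inhibiting tankyrases, which stabilises Axin and with it the complex that degrades beta-catenin, whereas IM12 acts in the other direction by inhibiting GSK3. BMP4 induces both germ cell fate and mesoderm or amnion from primed pluripotent cells, and WNT signalling is among the signals that shape which of these genes respond.

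Levels are the authors' deposited TPM, on which log2(TPM + 1) was computed. The 11197 genes that reached 1.5 on this scale in at least 1 of the 54 libraries were tested, out of 14812 in the table. Differences are given as log2 units, BLSE+IWR1 minus BLSE unless stated, so that 1 unit is close to a doubling at high levels and negative values mean lower in BLSE+IWR1. A gene was called when the p of limma, adjusted over all tested genes by Benjamini-Hochberg, was under 0.01. A called gene was counted as a DEG, differentially expressed gene, when it also differed by more than 4-fold with a mean level above 1.5.

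The arms differed widely, and in both directions. At 12 h, 658 of 11197 genes (5.88%) were called higher in BLSE+IWR1 and 887 (7.92%) lower, and by the DEG rule the balance lay further on the lower side, with 38 DEGs higher (0.339%) and 137 lower (1.22%). At 24 h, 904 genes (8.07%) were called higher and 729 (6.51%) lower, with 74 DEGs higher (0.661%) and 139 lower (1.24%). The median difference of all tested genes was 0.01 at 12 h and 0.08 at 24 h. The hours share no library, and 103 DEGs were lower at both, 75.2% of those at 12 h and 74.1% of those at 24 h. Among the DEGs higher, 31 were found at both hours, 81.6% of the 12 h list and 41.9% of the 24 h list. Whether the difference itself changed from 12 h to 24 h was tested as its own contrast, for which limma called 0 genes, with 581 genes at an unadjusted p under 0.05.

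The calls rest on a spread pooled over all 54 libraries. When limma was given only the 4 libraries of an hour, 0 genes were called at either hour, with 3102 genes at an unadjusted p under 0.05 at 12 h and 3135 at 24 h, a fit with fewer residual degrees of freedom, so every call named below at 12 h or 24 h ended in that fit. With 2 libraries against 2, the smallest exact permutation p is 0.33. Leaving out BLSE+IWR1 library 2 lowered the 1545 calls at 12 h to 877, and leaving out BLSE library 2 lowered them to 936. The 658 genes higher at 12 h became 403 without BLSE+IWR1 library 1, 388 without library 2, 429 without BLSE library 1 and 331 without its library 2, and the 887 lower became 489 without BLSE+IWR1 library 2. The 1633 calls at 24 h became 1030 without BLSE+IWR1 library 1 and 990 without library 2. The 904 genes higher at 24 h became 562 and the 729 lower became 468 without BLSE+IWR1 library 1, and 462 were lower without BLSE library 1. The balance of calls at 24 h was not stable: it turned to 772 higher and 937 lower under median-ratio scaling, 843 and 885 under quantile normalization, 470 and 520 without BLSE+IWR1 library 2 and 513 and 614 without BLSE library 2.

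The starting cells of the arms were themselves far apart, before any BMP4 or IWR1 was given. In cjESCs in PESFA against cjESCs in DK20FA, 906 genes (8.09%) were called higher and 978 (8.73%) lower, with 162 DEGs higher (1.45%) and 66 lower (0.589%) and a median of -0.08. These libraries are none of the 8 compared, so the lists can be set side by side. Of the 137 DEGs lower in BLSE+IWR1 at 12 h, 63 (46.0%) were also called lower in PESFA cjESCs, and 15 (10.9%) were called higher there. At 24 h, 55 of the 139 DEGs lower (39.6%) were called lower in PESFA cjESCs and 21 (15.1%) higher. For the DEGs higher in BLSE+IWR1, the cjESCs had been called in the same direction for 21 of 38 (55.3%) at 12 h and 28 of 74 (37.8%) at 24 h, and in the opposite direction for 0. Without PESFA library 2 the 1884 calls between the cjESCs became 955, of which 571 higher and 384 lower, and without DK20FA library 1 they became 1129, of which 598 higher and 531 lower, so the balance turned in both. When limma was given only these 4 cjESC libraries, 0 genes were called, with 2877 at an unadjusted p under 0.05, so every call between the cjESCs named below ended in that fit. The balance also turned with DK20FA library 2 left out, at 720 higher and 711 lower, under quantile normalization, at 1004 and 943, and under median-ratio scaling, at 1150 and 707.

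To relate the arms to their origins, the difference between the cjESCs was subtracted from the difference between the arms, which is the same as asking whether each arm moved away from its own starting cells by the same amount. This difference beyond the cjESCs was called higher for 438 genes (3.91%) and lower for 775 (6.92%) at 12 h, with 20 DEGs higher (0.179%) and 264 lower (2.36%). At 24 h it was called higher for 519 genes (4.64%) and lower for 634 (5.66%), with 43 DEGs higher (0.384%) and 230 lower (2.05%). Its median over all genes was 0.11 at 12 h and 0.20 at 24 h, and median-ratio scaling brought these to 0.02 and 0.03. Under that scaling the split at 12 h was 283 higher and 940 lower, and at 24 h it was 284 higher and 843 lower. With the pre-treated cells in place of the PESFA cjESCs, the counts were 180 higher (1.61%) and 510 lower (4.55%) at 12 h, and 297 higher (2.65%) and 448 lower (4.0%) at 24 h. Between the pre-treated cells and the PESFA cjESCs, limma called 10 genes higher and 24 lower.

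These differences beyond the starting cells were sensitive to single libraries. The 1213 calls at 12 h became 741 without BLSE+IWR1 library 2, 801 without BLSE library 2, 755 without PESFA library 2 and 808 without DK20FA library 1. The 1153 calls at 24 h became 723 without PESFA library 2. On the higher side alone, the 438 genes at 12 h became 228 without BLSE+IWR1 library 2, 213 without BLSE library 2, 195 without PESFA library 2 and 245 without DK20FA library 1. The 519 genes higher at 24 h became 269 without BLSE+IWR1 library 2, 307 without BLSE library 2, 241 without PESFA library 2 and 316 without DK20FA library 1. The 775 genes lower at 12 h became 513 without BLSE+IWR1 library 2. With the pre-treated cells as reference, the 690 calls at 12 h became 373 without pre-treated library 2, 438 without either BLSE+IWR1 library 2 or BLSE library 2 and 452 without DK20FA library 1, and the 745 calls at 24 h became 430 without pre-treated library 2 and 489 without DK20FA library 1. Of these, the 180 genes higher at 12 h became 64 without pre-treated library 2, 97 without BLSE+IWR1 library 2, 78 without BLSE library 2 and 100 without DK20FA library 1, and the 297 higher at 24 h became 133, 150, 164 and 175 without the same 4 libraries in that order, arm libraries being those of 24 h. With only the 8 libraries concerned, limma called 122 genes beyond the cjESCs at 12 h and 184 at 24 h, and beyond the pre-treated cells 0 at 12 h, with 2351 genes at an unadjusted p under 0.05, and 66 at 24 h. A lower value beyond the cjESCs can come from a gene that fell in the BLSE+IWR1 arm, from one that rose in the BLSE arm, or from both, and levels in single libraries are given for some of the genes named.

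The 3 genes given as markers of this comparison were A2M, which encodes the protease inhibitor alpha-2-macroglobulin, LEF1, a DNA-binding partner of beta-catenin, and SP5, a transcription factor gene switched on by WNT. All 3 were tested and all 3 were called lower in BLSE+IWR1 at both hours. They arrived at that difference from different starting points.

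A2M stood at 38.4 and 47.7 TPM at 12 h and 61.5 and 68.0 TPM at 24 h in BLSE, and at 9.79 and 12.1 TPM and 6.28 and 8.54 TPM in BLSE+IWR1. The cjESCs held 10.9 and 4.53 TPM in DK20FA and 7.34 and 11.2 TPM in PESFA, and the pre-treated cells 6.72 and 5.25 TPM. Only the 4 BLSE libraries were high, every BLSE+IWR1 library lay below all of them, and the cjESC groups overlapped. The difference was -1.88 at 12 h (standard error 0.33, adjusted p 3.54e-05 by limma) and -2.98 at 24 h (adjusted p 8.92e-09). Between the cjESCs it was 0.31 and was not called, and A2M was called lower beyond the cjESCs, at -2.19 at 12 h and -3.29 at 24 h. Leaving out 1 library beyond the cjESCs at 12 h ended the limma call of A2M without DK20FA library 2 (-1.64) and PESFA library 2 (-1.92). The call beyond the cjESCs at 12 h also ended for A2M (-2.19) with only the 8 libraries concerned. Changing the fit ended the call beyond the cjESCs at 24 h of A2M (-3.29) with only the 8 libraries concerned.

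LEF1 was present at 13.1 and 14.8 TPM at 12 h and 18.6 and 16.9 TPM at 24 h in BLSE, and at 0.82 and 0.68 TPM and 1.2 and 1.1 TPM in BLSE+IWR1. It was already different in the starting cells, at 4.19 and 4.29 TPM in DK20FA and 0.95 and 0.23 TPM in PESFA, with 1.33 and 0.63 TPM in pre-treated cells. The BLSE libraries were all high, the DK20FA cjESCs lay between, and no library of the PESFA cells or their BLSE+IWR1 descendants reached 2 TPM. LEF1 was lower in BLSE+IWR1 at -3.09 at 12 h (adjusted p 2.17e-10, limma) and -3.12 at 24 h (adjusted p 1.45e-10), and lower in the PESFA cjESCs at -1.76. Beyond the cjESCs the values of -1.33 and -1.36 did not pass (adjusted p 0.0158 and 0.0141), whereas beyond the pre-treated cells LEF1 was called lower, at -1.67 and -1.70. Leaving out 1 library beyond the pre-treated cells at 12 h ended the limma call of LEF1 without BLSE library 2 (-1.58), BLSE+IWR1 library 1 (-1.72), BLSE+IWR1 library 2 (-1.61), DK20FA library 1 (-1.65), DK20FA library 2 (-1.68) and pre-treated library 1 (-1.41). Calls beyond the pre-treated cells at 12 h were also lost to other settings, those of LEF1 (-1.67) with only the 8 libraries concerned, and of LEF1 (-1.96) with a pseudocount of 0.1. With 1 library left out, limma lost the call beyond the pre-treated cells at 24 h of LEF1 without BLSE library 1 (-1.63), BLSE+IWR1 library 1 (-1.73), BLSE+IWR1 library 2 (-1.66), DK20FA library 1 (-1.68) and pre-treated library 1 (-1.44). The call beyond the pre-treated cells at 24 h also ended for LEF1 (-1.70) with only the 8 libraries concerned, and of LEF1 (-1.75) with a pseudocount of 0.1.

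SP5 was measured at 27 and 27.9 TPM at 12 h and 24.7 and 34.7 TPM at 24 h in BLSE, and at 7.44 and 0.63 TPM and 2.54 and 3.23 TPM in BLSE+IWR1. The starting cells held 41.3 and 83.4 TPM in DK20FA and 4.22 and 2.63 TPM in PESFA, and the pre-treated cells 1.76 and 2.08 TPM. The transgenic libraries were high throughout, from cjESCs to 24 h, and the wild-type libraries low throughout, with no overlap. The difference of -2.94 at 12 h (adjusted p 1.42e-05, limma) and -2.97 at 24 h (adjusted p 1.06e-05) stands beside -3.78 between the cjESCs. Beyond the cjESCs SP5 was not called, at 0.84 and 0.81. Of the 3 markers, A2M alone was called beyond the cjESCs. Beyond the pre-treated cells LEF1 alone was called at 12 h, where A2M was at -1.66 (adjusted p 0.0143, limma), and A2M and LEF1 were called at 24 h, A2M at -2.76. Calls at 12 h that ended with 1 library fewer were those of SP5 without BLSE+IWR1 library 2 (-1.75). Under other settings the call beyond the pre-treated cells at 24 h ended, that of A2M (-2.76) with only the 8 libraries concerned.

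**Figure D1:**
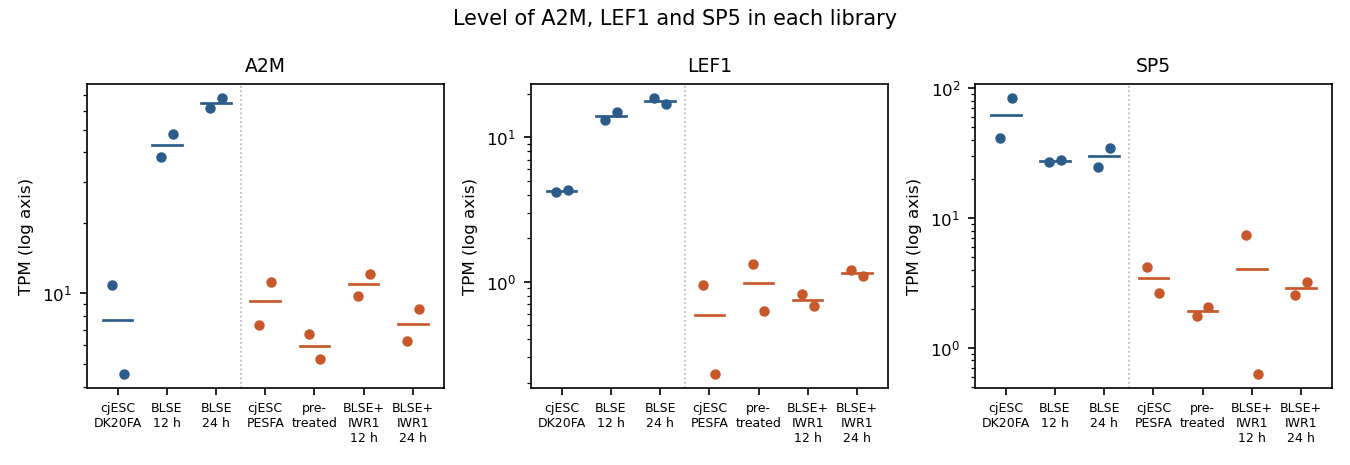
A2M, LEF1 and SP5 in TPM (log axis) in every library of the 7 groups, bars showing group means. A2M was at 61.5 and 68.0 TPM in BLSE and 6.28 and 8.54 TPM in BLSE+IWR1 at 24 h.

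Counts of calls in the gene lists that follow are to be read beside the shares of all tested genes called. Between the arms these were 5.88% higher and 7.92% lower at 12 h and 8.07% and 6.51% at 24 h. Between the cjESCs they were 8.09% and 8.73%, and beyond the cjESCs 3.91% and 6.92% at 12 h and 4.64% and 5.66% at 24 h. Beyond the pre-treated cells they were 1.61% and 4.55% at 12 h and 2.65% and 4.0% at 24 h. No test of a list as a whole was made. Genes that WNT signalling switches on, many of them feedback inhibitors of the pathway, would be the nearest readout of beta-catenin activity in these cells. The list held 22 genes, of which 20 were in the table and 20 were tested. At 12 h 8 were called lower and 12 were not called, with a median of -0.63 beside 0.01 for all genes. At 24 h 9 were lower and 11 not called, with a median of -0.85 beside 0.08. The secreted inhibitor DKK4 was lower, at -4.07 and -3.93, RNF43, which removes Frizzled receptors, at -2.17 and -2.09, and the caudal gene CDX2 at -3.32 and -4.09. AXIN2, the target used most often to read the pathway, was not called, at 0.16 and -0.33, with 9.62 and 5.70 TPM in BLSE and 5.33 and 6.13 TPM in BLSE+IWR1 at 24 h. NOTUM, TCF7 and SP8 were not called either, at 0.65, -0.50 and 0.15 at 24 h.

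Part of this list was called lower in the PESFA cjESCs already. There 7 of its 20 tested genes were called lower and 2 higher, with a median of -0.49. Beyond the cjESCs 6.92% of all tested genes were called lower at 12 h and 5.66% at 24 h. Of the 20 tested genes of this list, 2 were lower there at 12 h and the same 2 at 24 h, with medians of 0.01 (-0.10 under median-ratio scaling) (-0.04 under quantile normalization) and -0.32 beside 0.11 and 0.20. The BMP and WNT responsive gene APCDD1 was one of them, lower, at -1.32 and -1.71. APCDD1 stood at 76.4 and 71.0 TPM in PESFA cjESCs, and at 84.5 and 81.7 TPM in BLSE and 28.6 and 31.7 TPM in BLSE+IWR1 at 24 h. The other was TBX3, lower at -1.76 and -1.56, with 3.78 and 6.01 TPM in DK20FA and 12.9 and 13.9 TPM in PESFA cjESCs, 133 and 93.2 TPM in BLSE and 99.1 and 88.5 TPM in BLSE+IWR1 at 24 h. DKK4 was lower, at -4.13 between the cjESCs and had 0.20 left beyond them at 24 h, not called. Leaving out 1 library beyond the cjESCs at 12 h ended the limma call of TBX3 without BLSE+IWR1 library 2 (-1.5), DK20FA library 1 (-1.49) and PESFA library 2 (-1.71). Another setting ended the call beyond the cjESCs at 12 h of APCDD1 (-1.32) and TBX3 (-1.76) with only the 8 libraries concerned. With 1 library left out, limma lost the call beyond the cjESCs at 24 h of TBX3 without BLSE library 1 (-1.30), BLSE+IWR1 library 1 (-1.64), BLSE+IWR1 library 2 (-1.48), DK20FA library 1 (-1.28), PESFA library 1 (-1.61) and PESFA library 2 (-1.5). Changing the fit ended the call beyond the cjESCs at 24 h of TBX3 (-1.56) without the filter, and of TBX3 (-1.56) without the intensity trend, and of TBX3 (-1.56) with only the 8 libraries concerned. The count of 2 higher between the cjESCs in the list of WNT target and feedback genes became 0 without PESFA library 2 and 0 without DK20FA library 1. Calls lower beyond the cjESCs at 24 h among WNT target and feedback genes went from 2 to 1 without BLSE+IWR1 library 1, 1 without BLSE+IWR1 library 2, 1 without BLSE library 1, 1 without PESFA library 1 and 1 without DK20FA library 1. For WNT target and feedback genes, the 2 called lower beyond the cjESCs at 12 h became 4 without BLSE+IWR1 library 1.

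The genes of the pathway itself, its ligands, receptors, secreted modulators and intracellular machinery, showed a few strong differences within lists that mostly were not called. Of 19 WNT ligand genes, 13 were in the table and 10 were tested, and 2 were called lower at 12 h and 2 at 24 h, WNT3A and WNT5B (WNT5B at -1.22 and -1.95) at both hours, and the others were not called, with medians of -0.44 and -0.19 beside 0.01 and 0.08. WNT3A stood at 70.2 and 71.5 TPM at 12 h and 87.4 and 96.5 TPM at 24 h in BLSE, and at 10.3 and 6.57 TPM and 6.09 and 6.01 TPM in BLSE+IWR1. No library of one arm reached the other, and WNT3A was lower, at -2.96 and -3.72, with -2.67 between the cjESCs. WNT8A was low only in the PESFA cjESCs and pre-treated cells, at 0.58 and 1.79 TPM and 1.67 and 1.01 TPM. By 24 h it stood at 92.8 and 77.2 TPM in BLSE+IWR1 and 99.8 and 103 TPM in BLSE, -0.26 and not called, while beyond the cjESCs it was higher by 3.56 at 12 h and 3.93 at 24 h. Calls at 12 h that ended with 1 library fewer were those of WNT5B without BLSE library 1 (-1.12), BLSE library 2 (-1.31) and BLSE+IWR1 library 2 (-0.61). Calls at 12 h were also lost to other settings, those of WNT5B (-1.36) with a pseudocount of 0.1. WNT ligands counted 2 lower at 12 h but 1 without BLSE+IWR1 library 2, 1 without BLSE library 1 and 1 without BLSE library 2.

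The receptor list held 17 genes, of which 13 were in the table and 12 were tested, with 2 called higher at 12 h and 3 at 24 h, the others not called, and medians of 0.07 and 0.62 beside 0.01 and 0.08. FZD8 was higher by 1.59 and 2.02, and FZD5 at 24 h by 2.21, and FZD8 was at 13.9 and 12.8 TPM in BLSE and 51.5 and 62.8 TPM in BLSE+IWR1 at 24 h. FZD10 followed WNT8A: it was not called between the arms at 24 h (0.68) but was higher beyond the cjESCs by 3.94, from 5.54 and 1.90 TPM in PESFA cjESCs to 78.4 and 72.0 TPM at 24 h. Among the secreted modulators, 17 genes, of which 15 were in the table and 13 were tested, 3 were higher and 2 lower at 12 h and 3 and 2 at 24 h, with medians of 0.29 and 0.09. KREMEN1, a DKK co-receptor, was lower, at -2.03 and -1.37. The WNT amplifier RSPO3 was lower at 24 h at -2.17 and beyond the cjESCs at -4.20, having been called higher in the PESFA cjESCs. Of 15 genes of the destruction complex, tankyrases and TCF partners, 14 were in the table and 11 were tested, and TCF7L1 alone was called, higher by 0.98 and 1.55, with list medians of -0.14 and 0.20. TCF7L1 had been called higher in the PESFA cjESCs too, a call that ended without DK20FA library 2 (0.62). Beyond the cjESCs limma called 0 genes of this list, with 2 at an unadjusted p under 0.05 at 12 h and 1 at 24 h. TNKS2, the tankyrase gene in the table, was at -0.06 and 0.37, AXIN1 at -0.35 and 0.20 and CTNNB1 at -0.30 and -0.23, none of them called. Protein levels of Axin or beta-catenin were not measured in these libraries. The count of 2 higher at 12 h in the list of WNT receptors and co-receptors became 1 without BLSE+IWR1 library 1 and 1 without BLSE library 2. Calls lower at 12 h among secreted WNT modulators went from 2 to 1 without BLSE+IWR1 library 1, 1 without BLSE+IWR1 library 2 and 1 without BLSE library 2. For secreted WNT modulators, the 3 called higher at 24 h became 0 without BLSE+IWR1 library 2, 1 without BLSE library 1 and 1 without BLSE library 2.

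HOX genes and their axial partners mark the posterior identity that WNT and FGF give to cells leaving the primitive streak. All calls of this list lay on the lower side: of 29 genes, 23 were in the table and 20 were tested, and 14 were called lower at 12 h and 13 at 24 h. The remaining 6 and 7 were not called, and the medians were -1.62 and -2.04 beside 0.01 and 0.08 for all genes. HOXA10 stood at 26.2 and 33.8 TPM at 12 h and 47.0 and 43.9 TPM at 24 h in BLSE, and at 1.35 and 1.33 TPM and 1.36 and 0.97 TPM in BLSE+IWR1. Both cjESC groups were low, at 1.99 and 3.20 TPM and 2.46 and 1.78 TPM, so only the BLSE arm was high and no BLSE+IWR1 library came near it. HOXA10 was lower, at -3.72 and -4.43 (adjusted p 5.95e-14 and 3.86e-16, limma), and at -3.52 and -4.24 beyond the cjESCs. HOXB6 behaved alike, with 40.9 and 48.7 TPM in BLSE and 0.95 and 0.95 TPM in BLSE+IWR1 at 24 h, lower, at -3.70 and -4.55.

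Beyond the cjESCs, 16 of 20 genes of this list were called lower at 12 h and 18 at 24 h, with medians of -2.94 and -3.27 beside 0.11 and 0.20. Those counts join different courses, because 12 genes of the list were called higher in the PESFA cjESCs and 2 lower. Fibroblast and stromal markers, taken up further on, had medians beyond the cjESCs of -2.72 and -3.03, 10 of 14 of them being higher in the PESFA cjESCs, so the HOX list was not alone in such values. HOXC6 is an example: it was at 16.5 and 4.70 TPM in PESFA cjESCs, at 0 and 0.1 TPM in BLSE+IWR1 and at 0.13 and 0.42 TPM in BLSE at 24 h, with -0.27 between the arms, not called, and -3.59 beyond the cjESCs. The streak gene EVX1 went the other way, lower between the arms at -2.16 and -2.57 and at -3.36 between the cjESCs, with 0.79 beyond them, not called. Another setting ended the call beyond the cjESCs at 24 h of HOXC6 (-3.59) with only the 8 libraries concerned.

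**Figure D2:**
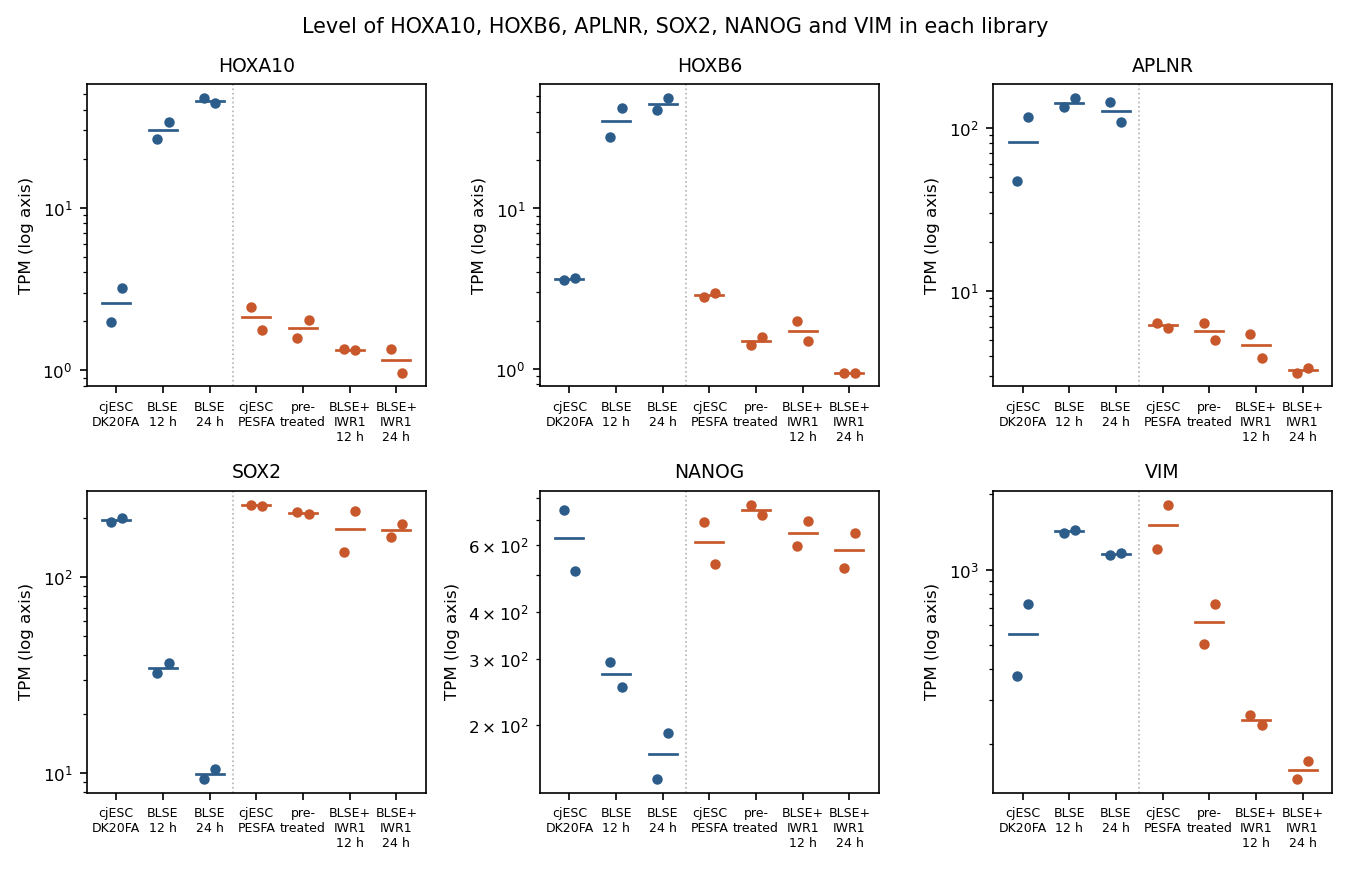
HOXA10, HOXB6, APLNR, SOX2, NANOG and VIM in TPM (log axis) in every library of the 7 groups, bars showing group means. SOX2 was at 9.36 and 10.6 TPM in BLSE and 159.8 and 187 TPM in BLSE+IWR1 at 24 h.

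Primitive streak and mesendoderm genes, with the NODAL axis that drives them, come on in cells that respond to WNT together with activin or BMP. The list held 22 genes, of which 17 were in the table and 17 were tested, and 3 were lower and 2 higher at 12 h and 3 and 2 at 24 h, with medians of -0.03 and -0.23 beside 0.01 and 0.08. APLNR stood at 133 and 151 TPM at 12 h and 143 and 109 TPM at 24 h in BLSE, and at 5.43 and 3.87 TPM and 3.15 and 3.36 TPM in BLSE+IWR1. This receptor gene of early mesoderm was at 46.9 and 117 TPM in DK20FA cjESCs and 6.36 and 5.92 TPM in PESFA cjESCs, high in every transgenic library and low in every wild-type one. APLNR was lower, at -4.67 at 12 h, the largest decrease of that hour under the naming rule, and at -4.89 at 24 h, and its -1.49 beyond the cjESCs was not called. GATA6 was lower, at -2.96 and -3.42, after -2.78 between the cjESCs. TBXT, which encodes Brachyury, was at 281 and 344 TPM in BLSE and 152 and 123 TPM in BLSE+IWR1 at 24 h, was lower at 12 h at -1.45 and not called at 24 h (-1.18), and had been lower, at -2.67 between the cjESCs. EOMES was not called at either hour, at -0.36 and -0.76. The NODAL co-receptor gene TDGF1 was higher, by 1.25 and 1.72, and FOXH1, a transcription partner of NODAL signalling, by 1.16 and 1.28, though neither was called between the cjESCs. Calls at 12 h that ended with 1 library fewer were those of TBXT without BLSE library 1 (-1.25) and BLSE+IWR1 library 2 (-0.66).

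BMP4 was given in both arms. ID3 was at 174 and 164 TPM and 153 and 241 TPM in the cjESCs and at 815 and 822 TPM in BLSE and 839 and 746 TPM in BLSE+IWR1 at 24 h, a difference of -0.05 that was not called. BAMBI and MSX2 were likewise not called between the arms, at 0.28 and 0.08 at 24 h. Of 18 BMP target genes, 15 were in the table and 15 were tested, with 2 called higher and 2 lower at 12 h, 1 and 2 at 24 h, and medians of -0.04 and -0.05. The 2 called higher at 12 h were ID1 and ID4. ID1 and MSX2 were higher beyond the cjESCs, ID1 by 1.51 and 1.46 and MSX2 by 1.97 and 1.72, both having been lower in the PESFA cjESCs, at -0.88 and -1.64. The genes called lower at both hours encode secreted regulators of BMP, NOG at -2.68 and -2.55 and BMPER at -2.44 and -2.61. NOG had been lower between the cjESCs at -2.34, while BMPER had not been called there and was lower beyond them at -2.71 and -2.89. With 1 library left out, limma lost the call between the cjESCs of ID1 without DK20FA library 1 (-0.67) and PESFA library 2 (-0.69). Under other settings the call beyond the cjESCs at 12 h ended, that of ID1 (1.51) and MSX2 (1.97) with only the 8 libraries concerned, and of BMPER (-3.39) with a pseudocount of 0.1. Calls beyond the cjESCs at 24 h were also lost to other settings, those of ID1 (1.46), MSX2 (1.72) and BMPER (-2.89) with only the 8 libraries concerned, and of BMPER (-3.63) with a pseudocount of 0.1. BMP target genes counted 2 higher at 12 h but 0 without BLSE+IWR1 library 1, 0 without BLSE+IWR1 library 2, 0 without BLSE library 1 and 0 without BLSE library 2. The count of 1 higher at 24 h in the list of BMP target genes became 0 without BLSE+IWR1 library 1, 0 without BLSE+IWR1 library 2, 0 without BLSE library 1 and 0 without BLSE library 2.

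The amnion-like factors, 12 genes, of which 10 were in the table and 10 were tested, counted 2 lower at 12 h, and 3 lower and 1 higher at 24 h, with medians of -0.55 and -0.67. HAND1 was lower at 12 h at -2.17, with 1149 and 1193 TPM in BLSE and 305 and 220.5 TPM in BLSE+IWR1, and was itself lower in the PESFA cjESCs at -3.26. At 24 h it was lower, at -1.21 between the arms but higher by 2.05 beyond the cjESCs. GATA3 and GATA2 were not called at either hour, at -0.43 and 0.72 at 24 h. GATA3 had been lower between the cjESCs at -2.04 and was higher beyond them at 24 h by 1.61. With 1 library left out, limma lost the call at 24 h of HAND1 without BLSE library 1 (-1.05), BLSE library 2 (-1.37) and BLSE+IWR1 library 2 (-0.99). The call at 24 h also ended for HAND1 (-1.21) with a pseudocount of 0.1. Calls beyond the cjESCs at 24 h that ended with 1 library fewer were those of HAND1 without BLSE+IWR1 library 1 (1.84), DK20FA library 2 (1.70) and PESFA library 2 (1.60), and of GATA3 without BLSE library 2 (1.41), BLSE+IWR1 library 1 (1.45), DK20FA library 2 (1.15) and PESFA library 2 (1.54). Under other settings the call beyond the cjESCs at 24 h ended, that of GATA3 (1.41) under median-ratio scaling, and of GATA3 (1.61) and HAND1 (2.05) with only the 8 libraries concerned, and of GATA3 (1.73) and HAND1 (2.09) with a pseudocount of 0.1. Calls lower at 12 h among amnion-like factors went from 2 to 1 without BLSE+IWR1 library 1, 1 without BLSE+IWR1 library 2, 1 without BLSE library 1 and 1 without BLSE library 2. For amnion-like factors, the 3 called lower at 24 h became 1 without BLSE+IWR1 library 2 and 1 without BLSE library 1. Amnion-like factors counted 1 higher at 24 h but 0 without BLSE+IWR1 library 1, 0 without BLSE library 1 and 0 without BLSE library 2.

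Cells that leave the epithelial state lose CDH1 and gain SNAI genes and vimentin. Of 13 genes of this transition and of cell adhesion, 11 were in the table and 9 were tested, and BLSE+IWR1 was lower for 4 and higher for 2 at 12 h and lower for 6 and higher for 2 at 24 h, with medians of -0.97 and -1.93. VIM stood at 1404 and 1446 TPM at 12 h and 1143 and 1165 TPM at 24 h in BLSE, and at 262 and 239 TPM and 145 and 171 TPM in BLSE+IWR1. The cjESCs held 375 and 729 TPM in DK20FA and 1212 and 1817 TPM in PESFA, so the 4 BLSE libraries and the PESFA cells were high and the BLSE+IWR1 libraries the lowest of all groups. VIM was lower, at -2.5 and -2.86 between the arms, higher by 1.5 in PESFA cjESCs, and lower, at -4.37 beyond them at 24 h. Fibroblast and stromal markers, described further on, had medians of 1.82 between the cjESCs and -3.03 beyond them at 24 h. Between the arms their medians were 0.04 (-0.01 under quantile normalization) at 12 h and -0.18 at 24 h, over members that went both ways. Of the 14 tested, 6 were called lower and 2 higher at 12 h, and 4 lower and 2 higher at 24 h. SNAI1 and SNAI2, repressors of the epithelial programme, were lower, at -1.93 and -2.03 at 24 h, and the adhesion gene ALCAM at -3.14. SNAI2 had been called lower between the cjESCs and was not called beyond them at either hour. Its call between the cjESCs ended without PESFA library 1 (-0.84), DK20FA library 1 (-1.29) and DK20FA library 2 (-1.01). On the epithelial side EPCAM was higher by 0.89 and 0.77, and CDH1 at 24 h by 1.14. The count of 2 higher at 12 h in the list of EMT and cell adhesion genes became 1 without BLSE+IWR1 library 1 and 1 without BLSE library 2.

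Most genes of the pluripotent state were called higher in BLSE+IWR1. Of 15 such genes, 14 were in the table and 14 were tested, and 10 were called higher at each hour and the others were not called, with medians of 1.02 at 12 h and 1.23 at 24 h beside 0.01 and 0.08 for all genes. Between the cjESCs 2 were called higher in PESFA and the others were not called, with 5 of the 14 at an unadjusted p under 0.05 by limma. Beyond the cjESCs 5 were called higher at 12 h and 7 at 24 h, and beyond the pre-treated cells 3 and 5. SOX2 stood at 32.5 and 36.5 TPM at 12 h and 9.36 and 10.6 TPM at 24 h in BLSE, and at 134 and 218 TPM and 159.8 and 187 TPM in BLSE+IWR1. Both cjESC groups held about as much as the BLSE+IWR1 arm, 191 and 200.4 TPM in DK20FA and 235 and 232 TPM in PESFA, so that the BLSE arm alone was low and its libraries overlapped with no other group. SOX2 was higher by 2.28 at 12 h (adjusted p 1.35e-07, limma) and by 3.99 at 24 h (adjusted p 3.56e-13), the largest increase under the naming rule at 24 h, and by 3.74 beyond the cjESCs. NANOG stood at 144 and 190.3 TPM in BLSE and 522 and 646 TPM in BLSE+IWR1 at 24 h, higher by 1.24 and 1.81. POU5F1, which encodes OCT4, was higher by 1.07 and 1.18, with 3429 and 3297 TPM in PESFA cjESCs, 5439.6 and 5481 TPM in BLSE+IWR1 and 2284 and 2526 TPM in BLSE at 24 h. PRDM14 was at 15.6 and 16.3 TPM in BLSE and 63.7 and 99.7 TPM in BLSE+IWR1 at 24 h, below the 202 and 130.0 TPM and 313 and 266 TPM of their cjESCs, and was higher in BLSE+IWR1 by 2.25. KLF5 and KLF17 were not called, at 0.06 and 0.47 at 24 h. Calls at 12 h were also lost to other settings, those of SOX2 (2.31) with a pseudocount of 0.1. Calls between the cjESCs that ended with 1 library fewer were those of PRDM14 without DK20FA library 2 (0.52), PESFA library 1 (0.72) and PESFA library 2 (0.95). The call between the cjESCs also ended for PRDM14 (0.83) without the filter, and of PRDM14 (0.83) without the intensity trend, and of PRDM14 (0.84) with a pseudocount of 0.1. Leaving out 1 library beyond the pre-treated cells at 12 h ended the limma call of POU5F1 without pre-treated library 2 (0.60), and of NANOG without BLSE library 2 (0.86), BLSE+IWR1 library 2 (0.86), DK20FA library 1 (0.70), pre-treated library 1 (1.01) and pre-treated library 2 (0.92). Under other settings the call beyond the pre-treated cells at 12 h ended, that of POU5F1 (0.61) and NANOG (0.90) under median-ratio scaling, and of NANOG (0.97) without the filter, and of NANOG (0.97) without the intensity trend, and of POU5F1 (0.68), NANOG (0.97) and SOX2 (2.16) with only the 8 libraries concerned, and of NANOG (0.97) and SOX2 (2.19) with a pseudocount of 0.1, and of NANOG (0.84) under quantile normalization. With 1 library left out, limma lost the call beyond the pre-treated cells at 24 h of DPPA4 without BLSE library 2 (0.60), BLSE+IWR1 library 2 (0.60), DK20FA library 1 (0.43) and pre-treated library 2 (0.62), and of UTF1 without BLSE library 1 (1.03), BLSE+IWR1 library 1 (1.09), DK20FA library 1 (0.97) and pre-treated library 2 (1.1). Another setting ended the call beyond the pre-treated cells at 24 h of POU5F1 (0.63), DPPA4 (0.53) and UTF1 (1.05) under median-ratio scaling, and of DPPA4 (0.69) without the filter, and of DPPA4 (0.69) without the intensity trend, and of POU5F1 (0.79), NANOG (1.54), DPPA4 (0.69) and UTF1 (1.21) with only the 8 libraries concerned, and of DPPA4 (0.59) under quantile normalization. Calls higher between the cjESCs among pluripotency-associated genes went from 2 to 1 without PESFA library 1, 1 without PESFA library 2 and 1 without DK20FA library 2. For pluripotency-associated genes, the 5 called higher beyond the cjESCs at 12 h became 3 without BLSE+IWR1 library 2, 3 without BLSE library 2, 3 without PESFA library 2 and 3 without DK20FA library 1. Pluripotency-associated genes counted 7 higher beyond the cjESCs at 24 h but 4 without PESFA library 2 and 3 without DK20FA library 1.

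Some genes of primordial germ cells and their specification were called between the arms, in both directions, and more were not called. The list held 11 genes, of which 10 were in the table and 9 were tested, with 2 higher and 2 lower at 12 h, 2 and 1 at 24 h, and medians of 0.16 and 0.16. SOX17 stood at 64.6 and 62.7 TPM at 12 h and 58.9 and 37.8 TPM at 24 h in BLSE, and at 4.97 and 5.08 TPM and 9.14 and 6.06 TPM in BLSE+IWR1. SOX17 was thus low in every wild-type library and high in every transgenic one, cjESCs in DK20FA included at 27.6 and 36.2 TPM against 7.22 and 7.49 TPM in PESFA. It was lower, at -3.42 and -2.51 between the arms and at -1.96 between the cjESCs. Beyond the cjESCs SOX17 was called lower at 12 h and not called at 24 h. The 12 h call beyond them ended without BLSE+IWR1 library 1 (-1.45) or 2 (-1.47). It also ended without BLSE library 1 (-1.44) or 2 (-1.48) and without PESFA library 1 (-1.48) or 2 (-1.44). Reads of the SOX17 transgene carried by the BLSE line were not told apart from the gene's own. TFAP2C, also carried as a transgene, was lower at 12 h at -1.09 and not called at 24 h (-0.44). PRDM1, the gene for BLIMP1, a further transgene of that line, and NANOS3 were not called at either hour, at 0.16 and 0.06 at 24 h. Reads of the TFAP2C and BLIMP1 transgenes were not told apart from those of the genes either. NANOS3 reached 7.78 and 8.39 TPM in BLSE and 9.10 and 7.85 TPM in BLSE+IWR1, and the surface gene PDPN was higher by 0.93 and 1.46. The count of 2 higher at 24 h in the list of PGC-associated genes became 1 without BLSE+IWR1 library 1, 1 without BLSE+IWR1 library 2, 1 without BLSE library 1 and 1 without BLSE library 2.

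Neural and anterior factors, retinoic acid genes and FGF feedback were examined as the programmes that border on posterior mesoderm. Of 20 neural and anterior genes, 17 were in the table and 12 were tested, with 3 higher and 1 lower at 12 h and 3 and 1 at 24 h, and medians of 0.66 and 0.85. ZIC5 was higher by 2.25 and 3.13, with 1.11 and 0.77 TPM in BLSE and 13.6 and 18.7 TPM in BLSE+IWR1 at 24 h. NES, an intermediate filament gene and the most abundant of the list, was at 409.6 and 386 TPM in BLSE and 260.5 and 309 TPM in BLSE+IWR1 at 24 h, lower, at -0.50 and -0.48. SOX1 was at 0 and 0 TPM and 0.57 and 0.24 TPM, and OTX2 at 0 and 0 TPM and 0.31 and 0.13 TPM. The retinoic acid genes, 18 genes, of which 16 were in the table and 13 were tested, counted 4 lower and 1 higher at 12 h and 3 and 2 at 24 h, with medians of -0.66 and 0.11 (-0.02 under quantile normalization). The binding protein gene CRABP2 was lower, at -2.92 and -3.01. CRABP2 had been called lower between the cjESCs and was not called beyond them at either hour. Its call between the cjESCs ended without PESFA library 1 (-1.29), PESFA library 2 (-1.29) and DK20FA library 2 (-0.59). FGF ligands and ERK feedback genes, 17 genes, of which 14 were in the table and 14 were tested, counted 1 lower at 12 h and 1 at 24 h, the others not called, with medians of 0.15 and -0.02. SPRY4 was at -0.43 and DUSP6 at -0.76 at 24 h, neither called. Calls at 12 h that ended with 1 library fewer were those of NES without BLSE library 1 (-0.50), BLSE library 2 (-0.51) and BLSE+IWR1 library 2 (-0.40). With 1 library left out, limma lost the call at 24 h of NES without BLSE library 1 (-0.44), BLSE library 2 (-0.53) and BLSE+IWR1 library 1 (-0.36). Under other settings the call at 24 h ended, that of NES (-0.48) without the intensity trend, and of NES (-0.49) with a pseudocount of 0.1. Calls lower at 12 h among neural and anterior factors went from 1 to 0 without BLSE+IWR1 library 2, 0 without BLSE library 1 and 0 without BLSE library 2. For neural and anterior factors, the 1 called lower at 24 h became 0 without BLSE+IWR1 library 1, 0 without BLSE library 1 and 0 without BLSE library 2. Retinoic acid metabolism and receptors counted 4 lower at 12 h but 2 without BLSE+IWR1 library 2 and 2 without BLSE library 2. The count of 1 higher at 12 h in the list of retinoic acid metabolism and receptors became 0 without BLSE+IWR1 library 1, 0 without BLSE+IWR1 library 2 and 0 without BLSE library 2. Calls higher at 24 h among retinoic acid metabolism and receptors went from 2 to 1 without BLSE+IWR1 library 1, 0 without BLSE+IWR1 library 2, 1 without BLSE library 1 and 1 without BLSE library 2. For FGF ligands and ERK feedback, the 1 called lower at 12 h became 0 without BLSE+IWR1 library 2. FGF ligands and ERK feedback counted 1 lower at 24 h but 0 without BLSE+IWR1 library 1, 0 without BLSE+IWR1 library 2 and 0 without BLSE library 1.

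Because cjESCs grow on fibroblast feeders, genes of fibroblasts and stroma were listed to see how much of the difference they carry. The list held 15 genes, of which 15 were in the table and 14 were tested, and between the arms 2 were higher and 6 lower at 12 h and 2 and 4 at 24 h, with medians of 0.04 (-0.01 under quantile normalization) and -0.18. Between the cjESCs 10 were higher in PESFA and 1 lower, with a median of 1.82. Summed over the list, the libraries held 5256 and 4515 TPM in PESFA cjESCs, 3630.1 and 6958 TPM in pre-treated cells and 1302 and 1878 TPM in DK20FA cjESCs. The sums were 1608 and 1764 TPM at 12 h and 1723 and 1550.1 TPM at 24 h in BLSE, and 969.5 and 748 TPM and 1235 and 1179.9 TPM in BLSE+IWR1. COL1A1 or S100A6 was the most abundant gene of the list in PESFA and pre-treated cells, and FBLN1 in all others. COL3A1 was at 587 and 310.3 TPM in PESFA cjESCs, 3.71 and 13.6 TPM in DK20FA cjESCs and 2.44 and 4.43 TPM in BLSE+IWR1 at 24 h. It was not called between the arms (1.07) but was lower beyond the cjESCs, at -4.62. Beyond the cjESCs 9 and 8 of the 14 were lower at 12 h and 24 h, with medians of -2.72 and -3.03, so the lower side of that contrast includes genes that were high in the PESFA cjESC libraries. Whether these transcripts came from feeder cells was not tested. Between the arms, DCN was lower, at -2.65 and -3.14, with 122 and 114 TPM in BLSE and 10.8 and 14.4 TPM in BLSE+IWR1 at 24 h. THY1 was higher by 2.15 and 2.15. It had been called higher in the PESFA cjESCs too and was not called beyond the cjESCs at either hour. In bulk libraries, fewer cells of a type and less RNA per cell cannot be told apart. Calls beyond the cjESCs at 24 h were also lost to other settings, those of COL3A1 (-4.62) with only the 8 libraries concerned. The count of 6 lower at 12 h in the list of fibroblast and stromal markers became 3 without BLSE+IWR1 library 2. Calls higher at 24 h among fibroblast and stromal markers went from 2 to 1 without BLSE+IWR1 library 2 and 1 without BLSE library 2.

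**Figure D3:**
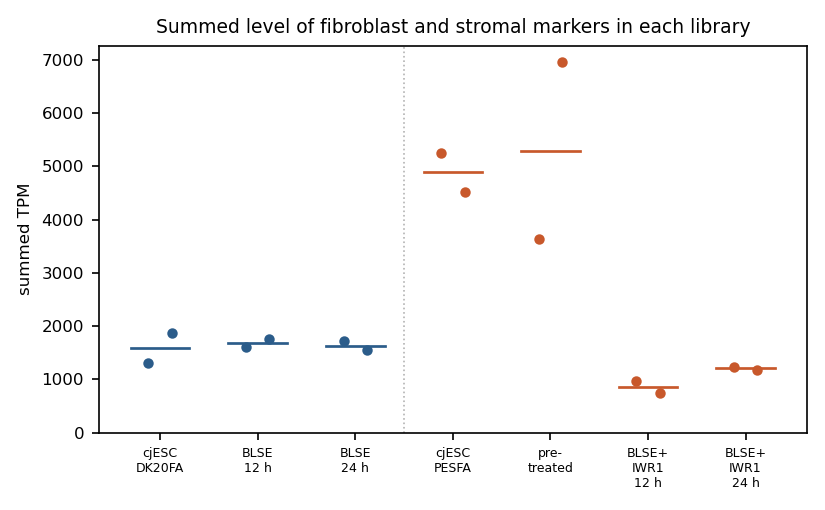
Summed TPM of the fibroblast and stromal list in every library of the 7 groups, bars showing group means. The PESFA cjESC libraries held 5256 and 4515 TPM and the BLSE+IWR1 libraries 1235 and 1179.9 TPM at 24 h.

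Other lineages were surveyed with whole marker lists, and which cells carried these transcripts was not tested. Of 12 endoderm genes, 8 were in the table and 8 were tested, with 2 and 3 lower at 12 h and 24 h, the others not called, and summed levels of 284 and 198 TPM in BLSE and 32.8 and 29.5 TPM in BLSE+IWR1 at 24 h, where GATA6 contributed most. SOX17 was among those called lower at both hours, and reads of its transgene in the BLSE line were not told apart. AFP and TTR, which define later endoderm, were listed at 0 in all 14 libraries. Of 10 vascular and haematopoietic genes, 10 were in the table and 8 were tested, with 4 and 2 lower, the others not called, and summed levels of 106 and 76.8 TPM in BLSE and 73.9 and 108 TPM in BLSE+IWR1 at 24 h, KDR being the most abundant. RUNX1 was lower at 24 h at -1.93, and TAL1 and GATA1 did not reach 1 TPM in any of these 4 groups. Of 8 trophoblast genes, 4 were in the table and 3 were tested, and limma called 0 at either hour, with 1 at an unadjusted p under 0.05 at 12 h and 0 at 24 h. Their summed levels were 108 and 103 TPM in BLSE and 93.5 and 99.3 TPM in BLSE+IWR1 at 24 h, most of it SDC1. For vascular and haematopoietic markers, the 4 called lower at 12 h became 1 without BLSE+IWR1 library 1, 0 without BLSE+IWR1 library 2, 2 without BLSE library 1 and 2 without BLSE library 2. Vascular and haematopoietic markers counted 2 lower at 24 h but 1 without BLSE+IWR1 library 1.

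Genes that respond to stress, to low oxygen or to LIF, which both arms received, were taken as 3 lists. Of 14 stress and immediate early genes, 10 were in the table and 10 were tested, with 2 lower at 12 h, and 2 higher and 2 lower at 24 h, and medians of -0.25 and 0.04 (-0.05 under median-ratio scaling) (-0.01 under quantile normalization). GADD45A, a DNA damage and growth arrest gene, was lower, at -2.15 and -2.28, and ATF3 at -2.54 and -2.12. Hypoxia and glycolysis genes, 14 genes, of which 11 were in the table and 11 were tested, counted 2 and 1 lower at 12 h and 24 h, the others not called, with medians of -0.08 and -0.17, EGLN3 being lower, at -1.0 and -1.19. LDHA and PGK1 were not called, at 0.07 and -0.03 at 24 h. Among LIF and STAT3 targets, 10 genes, of which 9 were in the table and 9 were tested, 1 and 1 were higher and 2 and 2 lower, with medians of -0.32 and 0.02 (-0.06 under median-ratio scaling) (-0.06 under quantile normalization). PIM2 was higher by 2.06 and 3.03 and the receptor gene LIFR lower, at -1.99 and -2.05. LIFR had been called lower between the cjESCs and was not called beyond them at either hour. Its call between the cjESCs ended without PESFA library 2 (-0.6), DK20FA library 1 (-0.9) and DK20FA library 2 (-0.9). Another setting ended the call at 24 h of ATF3 (-2.17) with a pseudocount of 0.1. The count of 2 higher at 24 h in the list of stress and immediate early genes became 0 without BLSE+IWR1 library 1, 1 without BLSE library 1 and 1 without BLSE library 2. Calls lower at 12 h among hypoxia and glycolysis genes went from 2 to 1 without BLSE+IWR1 library 2 and 1 without BLSE library 2. For LIF and STAT3 targets, the 2 called lower at 12 h became 1 without BLSE+IWR1 library 2.

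The naming rule took, at each hour, 10 DEGs in either direction, ranked by size, from those whose replicates did not overlap between the arms. At 12 h the largest increases were those of NPY1R (3.26), CLDN11 (3.25), ATP1B2 (3.02), RARRES2 (2.93) and PGM5 (2.86). CA11, LCK, VAT1L, GPR160 and S100G completed the 10, none of which belongs to the lists above. NPY1R, a neuropeptide receptor gene, was at 2.26 and 0.71 TPM in BLSE and 17.2 and 27 TPM in BLSE+IWR1, and its cjESCs held 3.63 and 2.14 TPM in DK20FA and 18.2 and 14.7 TPM in PESFA. Besides APLNR, DKK4, HOXA10 and HOXB6, the decreases at 12 h included those of CIDEC (-4.43), NGFR (-4.23), ALAS2 (-3.94), MNX1 (-3.79) and FOXF1 (-3.61). FOXF1, a transcription factor gene of lateral mesoderm, was at 49.2 and 52.8 TPM in BLSE and 4.37 and 2.39 TPM in BLSE+IWR1. NGFR was at 58.4 and 58.3 TPM in BLSE and 2.12 and 2.21 TPM in BLSE+IWR1, against 13.1 and 13.4 TPM and 1.47 and 1.82 TPM in the cjESCs in DK20FA and PESFA.

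At 24 h SOX2 headed the increases, NPY1R, ATP1B2, RARRES2 and LCK were again among them, and ZIC5 joined them. The others were DDIT4L (3.65), FOXD3 (3.53), TNMD (3.30) and BIK (3.29), with LCK at 3.32. FOXD3, a gene of the pluripotent epiblast, was at 1.18 and 0.42 TPM in BLSE and 18.7 and 19.9 TPM in BLSE+IWR1, and at 23.9 and 16.1 TPM and 59.5 and 39.6 TPM in the cjESCs in DK20FA and PESFA. The decreases at 24 h included those of APLNR, HOXB6, HOXA10, CDX2 and ESM1 (-4.47), ALAS2 (-4.47), HOXA11 (-4.28), FOXF1 (-4.03) and IL17RE (-4.0). HOXA11, a HOX gene outside the list above, was at 47.1 and 41.8 TPM in BLSE and 1.17 and 1.51 TPM in BLSE+IWR1. ESM1, an endothelial gene, was at 32.0 and 38.3 TPM and 0.14 and 1.31 TPM.

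For the differences beyond the cjESCs the rule took 5 genes on each side, and the sides differ in how they arise. The lower side at 24 h included PENK (-7.09), INHBA (-5.90), EMP1 (-5.89) and ARHGDIB (-5.77). INHBA, an activin subunit gene, was at 43.7 and 490.2 TPM in PESFA cjESCs, 5.27 and 3.38 TPM in DK20FA cjESCs, 4.97 and 7.52 TPM in BLSE and 2.35 and 2.39 TPM in BLSE+IWR1 at 24 h. PENK, which encodes proenkephalin, was at 72.4 and 121 TPM in PESFA cjESCs, 2.09 and 0.92 TPM in DK20FA cjESCs, 8.41 and 18.8 TPM in BLSE and 4.04 and 2.02 TPM in BLSE+IWR1. At 12 h the lower side included INHBA (-6.23), PENK (-6.00), IGFBP7 (-5.97) and S100A6 (-5.91). The higher side at 24 h was FZD10, WNT8A, SOX2 and CFAP126 (3.85) and SMKR1 (3.65), and at 12 h WNT8A and SMKR1 (4.30), CFAP126 (3.64), KIF9 (3.30) and NUPR2 (3.20). SMKR1 was at 6.17 and 15.3 TPM in DK20FA cjESCs and 0 and 0.7 TPM in PESFA cjESCs, and at 3.48 and 4.83 TPM in BLSE and 7.65 and 5.97 TPM in BLSE+IWR1 at 24 h. Leaving out 1 library beyond the cjESCs at 12 h ended the limma call of NUPR2 without BLSE library 1 (3.10), BLSE library 2 (3.29), BLSE+IWR1 library 1 (3.39), BLSE+IWR1 library 2 (3.0), DK20FA library 2 (2.54) and PESFA library 2 (1.75). Changing the fit ended the call beyond the cjESCs at 12 h of NUPR2 (3.20) without the filter, and of NUPR2 (3.20) without the intensity trend, and of S100A6 (-5.91), SMKR1 (4.30), KIF9 (3.30), NUPR2 (3.20) and INHBA (-6.23) with only the 8 libraries concerned, and of S100A6 (-5.96) and CFAP126 (3.85) with a pseudocount of 0.1. Under other settings the call beyond the cjESCs at 24 h ended, that of SMKR1 (3.65) and INHBA (-5.90) with only the 8 libraries concerned, and of CFAP126 (4.14) with a pseudocount of 0.1.

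**Figure D4:**
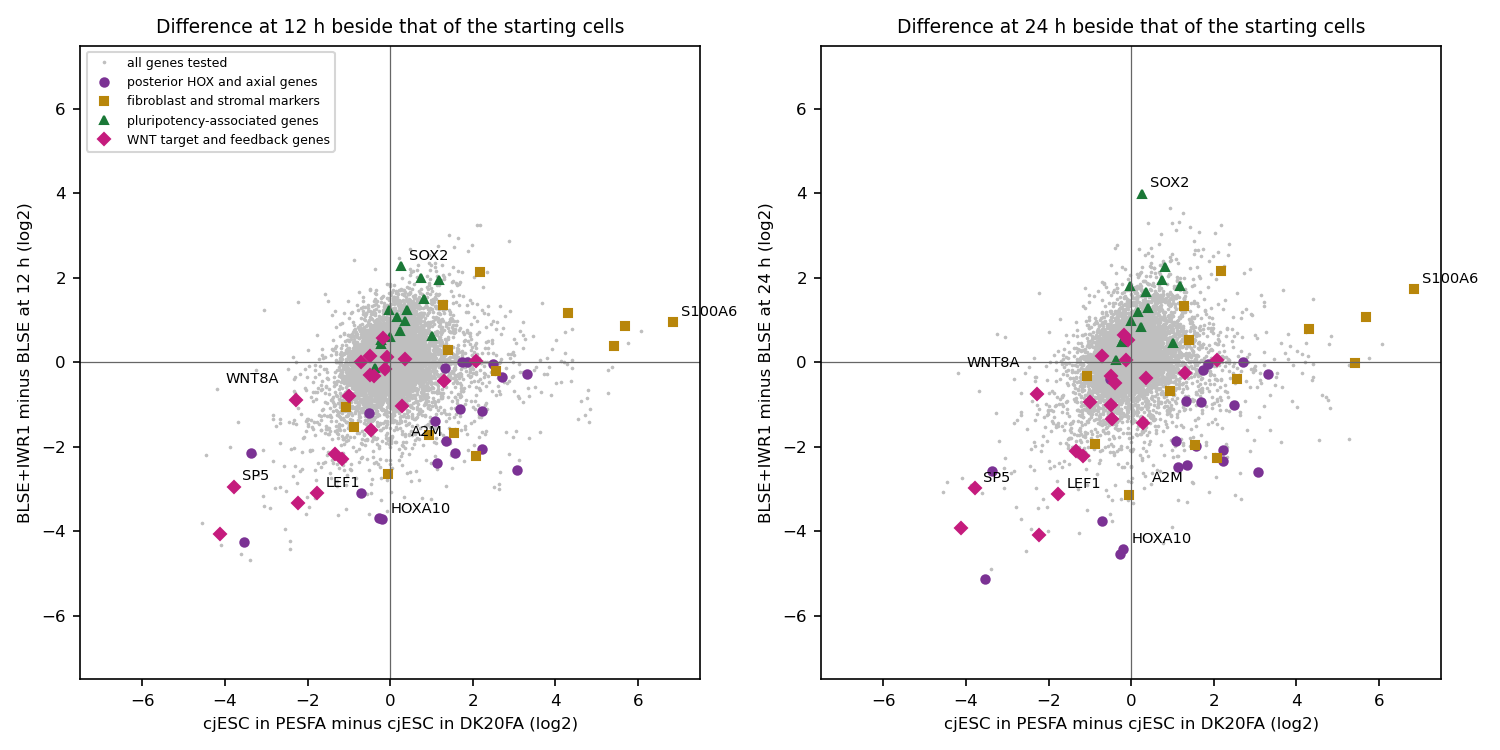
Difference between BLSE+IWR1 and BLSE at 12 h and 24 h (log2, vertical) beside the difference between PESFA and DK20FA cjESCs (log2, horizontal) for 11197 genes, with 4 lists marked. At 24 h the medians of the HOX list and the pluripotency list were -2.04 and 1.23.

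Set against their own starting cells, the BLSE+IWR1 cells held less A2M, VIM and posterior HOX transcript and more SOX2 and NANOG than the BLSE cells, by calls beyond the cjESCs at 24 h of -3.29, -4.37, -4.24 for HOXA10, 3.74 and 1.83. SP5, DKK4, APLNR, GATA6 and WNT3A were lower between the cjESCs too, and none was called beyond them at 24 h, at 0.81, 0.20, -1.49, -0.64 and -1.05. VIM and 12 genes of the HOX list had been called higher in the PESFA cjESCs, and so had 10 of 14 fibroblast and stromal markers, of which list 8 were lower beyond the cjESCs at 24 h. Among BMP targets at 24 h, ID3, ID1 and MSX2 were not called between the arms. NOG and BMPER were lower, of which BMPER alone was called beyond the cjESCs. A further target was called higher between the arms, a call that ended with any single library of that hour left out. ID1 and MSX2, lower in the PESFA cjESCs, were higher beyond the cjESCs by 1.46 and 1.72. Which of genotype, medium, pre-treatment and IWR1 these differences follow cannot be told apart with these libraries. Calls beyond the cjESCs at 24 h were also lost to other settings. With only the 8 libraries concerned, those of A2M (-3.29), ID1 (1.46), MSX2 (1.72), NANOG (1.83) and BMPER ended. The call of BMPER ended with the smaller pseudocount too.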

How the data were processed

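The authors measured poly(A) RNA with stranded bulk libraries, mapped them on a marmoset genome using STAR 2.7.7a and estimated TPM with RSEM 1.3.3, and the deposited TPM were used as given. The table lists 14812 genes in 54 libraries. Read totals are not part of it, so the depth of each library is unknown. A gene listed at 0 is reported as 0, without a fold.

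With R 4.3.3 and limma 3.58.1, log2(TPM + 1) of the 11197 genes at 1.5 or more in at least 1 library was fitted with 1 mean per condition over all libraries, an intensity trend and 27 residual degrees of freedom. Calls needed a Benjamini-Hochberg adjusted p under 0.01, and DEGs also a difference above 4-fold and a mean level above 1.5. The replicates are biological duplicates by the study's methods.

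Genes named are members of 24 lists (339 genes, 283 in the table), and the DEGs with the largest differences: 10 in each direction per hour with replicates that did not overlap, and 5 beyond the cjESCs. A few of these genes are not reported here. Members and lists were chosen with earlier results of these data known. Alternatives were a pseudocount of 0.1, other filters, only the libraries compared, a replicate block, median-ratio scaling, quantile normalization, no trend, and leaving out each library.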

Additional observations from a re-analysis of the deposited data

Results flagged for a closer look

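The results below were singled out because the difference between the arms departed from the difference between their starting cells, by a limma test of that very difference. Each group held 2 libraries, so no library was examined as far from its own group.

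The test was passed by 1213 genes at 12 h and 1153 at 24 h with the cjESCs as reference, and by 690 and 745 genes with the pre-treated cells in place of the PESFA cjESCs. The marker A2M was among them, lower at -2.19 at 12 h and -3.29 at 24 h. At 12 h large values on the higher side were SMKR1 (4.30), CFAP126 (3.64), WNT8A (3.56), KIF9 (3.30) and NUPR2 (3.20), and on the lower side INHBA (-6.23), PENK (-6.00), IGFBP7 (-5.97) and S100A6 (-5.91). At 24 h they were FZD10 (3.94), WNT8A (3.93), CFAP126 (3.85), SOX2 (3.74) and SMKR1 (3.65) on the higher side and PENK (-7.09), INHBA (-5.90), EMP1 (-5.89) and ARHGDIB (-5.77) on the lower side. Explanations for these departures were not tested.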

How the results depend on the processing

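Direction held throughout: 0 of the called values of named and list genes turned their sign under any alternative. When an arm is left with 1 library, that lone sample is assumed to vary like the other groups.

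With only the libraries compared, a fit with fewer residual degrees of freedom, limma called 0 genes, and so 0 DEGs, at 12 h (3102 at an unadjusted p under 0.05), 24 h (3135), between the cjESCs (2877) and beyond the pre-treated cells at 12 h (2351). In that fit the differences beyond the cjESCs had 122 calls and 78 DEGs at 12 h and 184 and 105 at 24 h, against 1213, 284, 1153 and 273, and beyond the pre-treated cells at 24 h it gave 66 and 42, against 745 and 207.

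Leaving out 1 library gave 877 to 1197 calls at 12 h (1545 with all), 990 to 1127 at 24 h (1633), 955 to 1610 between the cjESCs (1884), 741 to 1295 and 723 to 1220 beyond the cjESCs (1213 and 1153), and 373 to 703 and 430 to 760 beyond the pre-treated cells (690 and 745). Totals of DEGs stayed within 1.5 times, but DEGs higher went from 20 to 31 beyond the cjESCs at 12 h without PESFA library 1, and beyond the pre-treated cells from 12 to 20 at 12 h without BLSE library 1 and from 41 to 27 at 24 h without BLSE+IWR1 library 2. The change of the difference from 12 h to 24 h had 0 to 1 calls: LOC100411174 (-2.48) without BLSE+IWR1 12 h library 1, PYDC5 (-2.03) without library 2, and, with no filter on low values, 1 call, METTL7B (-0.68), genes chosen after their values were seen. The cause was not tested.

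Median-ratio scaling moved the split of calls from 904 higher and 729 lower to 772 and 937 at 24 h, from 906 and 978 to 1150 and 707 between the cjESCs, from 438 and 775 to 283 and 940 and from 519 and 634 to 284 and 843 beyond the cjESCs, and from 297 and 448 to 213 and 595 beyond the pre-treated cells at 24 h. The all-gene median beyond the cjESCs went from 0.11 to 0.02 at 12 h and from 0.20 to 0.03 at 24 h. Beyond the pre-treated cells it went from 0.067 to 0.007 at 12 h and from 0.15 to 0.01 at 24 h. This scaling also took the DEGs higher beyond the pre-treated cells at 24 h from 41 to 27. A pseudocount of 0.1 took the DEGs higher from 74 to 119 at 24 h and from 12 to 7 beyond the pre-treated cells at 12 h. Under these settings, the filters, the trend and quantile normalization, every other total stayed within 1.5 times.

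Replicate numbers are shared by label only. With the replicate number as a block, calls were 1586 at 12 h, 1680 at 24 h, 1979 between the cjESCs, 1279 and 1238 beyond the cjESCs, 715 and 786 beyond the pre-treated cells and 0 for the change. Deviations of same-numbered libraries of the arms correlated at 0.0132 at 12 h and -0.2102 at 24 h, and nothing was crossed. The largest values among the 7 groups were 0.2319 between BLSE at 12 h and 24 h, 0.1787 between BLSE at 24 h and BLSE+IWR1 at 12 h, and 0.1638 between PESFA cjESCs and pre-treated cells. TPM hold no read totals, so what depth limits cannot be stated.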

Other observations

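A few genes outside the lists and the naming rule were chosen after their values were seen. Among genes of motile cilia, FOXJ1 was at 289 and 219 TPM in DK20FA and 206 and 180.0 TPM in PESFA cjESCs, 13.7 and 29.4 TPM in BLSE and 122 and 154 TPM in BLSE+IWR1 at 24 h. DNALI1 was at 37.1 and 43.6 TPM in DK20FA and 17.9 and 18.1 TPM in PESFA cjESCs, 4.40 and 6.24 TPM in BLSE and 20.0 and 20.6 TPM in BLSE+IWR1 at 24 h. Of the Notch pathway, DLL1 was at 24.5 and 22.2 TPM in DK20FA and 8.11 and 5.0 TPM in PESFA cjESCs, 10.2 and 7.23 TPM in BLSE and 21.0 and 16.6 TPM in BLSE+IWR1 at 24 h. NRARP was at 29.1 and 30.8 TPM in DK20FA and 28.6 and 22.5 TPM in PESFA cjESCs, 5.37 and 5.79 TPM in BLSE and 29.9 and 30.5 TPM in BLSE+IWR1 at 24 h. Genes often used as references were not level between the arms: GAPDH was at 2657 and 2996 TPM in DK20FA and 3662 and 3254 TPM in PESFA cjESCs, 2291 and 2309 TPM in BLSE and 3689 and 3812 TPM in BLSE+IWR1 at 24 h. ACTB was at 5187 and 5038 TPM in DK20FA and 4667 and 5201 TPM in PESFA cjESCs, 5176 and 4983 TPM in BLSE and 3869.8 and 3775 TPM in BLSE+IWR1 at 24 h.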
